A study of Arabidopsis thaliana with 8 samples.

Results

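The oleosin genes OLEO3 (locus AT5G51210), AT3G01570 and AT3G18570 were followed in dry Arabidopsis thaliana seed and in seed imbibed for 24 h with water or with abscisic acid (ABA). These 3 genes were picked by name from a table of platform annotation, out of 13513 probe sets that it pairs with a single gene. Each had 1 probe set: 248435_at for OLEO3, 259167_at for AT3G01570 and 256827_at for AT3G18570. A probe set is a group of array probes read together as 1 transcript, and it measures that transcript in arbitrary units of signal. All 3 passed a filter on low signal, which kept 15922 of 22746 probe sets.

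Oleosins are small proteins that coat the oil bodies of seeds, the droplets in which triacylglycerol is stored. A long hydrophobic hairpin of the protein lies in the oil, and the coat keeps droplets apart while the seed is dry. Oleosin genes are switched on during seed maturation, a phase in which ABA acts together with maturation transcription factors, and the protein is broken down after germination as the oil is used. ABA also holds back germination when it is supplied to imbibing seed.

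The study used seed of the Col-0 accession throughout, in 4 groups of 2 arrays: untreated dry seed, and seed given 24 h in water, in 3 µM ABA or in 30 µM ABA. Total RNA was biotin-labelled and hybridised to 1 array per sample. Arrays are called replicate A or B after the last letter of their titles, and in 3 µM ABA replicate A has title number 3 and replicate B has 5. The labels do not say whether a group's arrays hold RNA of separate seed batches, so p-values here cover only array-to-array spread, which could be technical. Whole seed was profiled, so fewer cells of a type and less RNA per cell cannot be told apart. The deposited signals share a common trimmed mean on all arrays, and the number of arrays limits the precision. As a check of the seed label, 5 of 13 listed seed storage protein genes had a probe set of their own. In dry seed 4 of these had mean signals of 1435 or more, and the other averaged 47.3.

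OLEO3 had signals of 919 and 618 on the dry seed arrays, 207 and 199 on the water arrays, 281 and 267 on those with 3 µM ABA, and 325 and 463 with 30 µM ABA. Both dry arrays were above every imbibed array, and among imbibed arrays those in water were lowest and those in 30 µM ABA highest, with no overlap between neighbouring groups. By way of background, dry seed arrays lay above both arrays of the water, 3 µM and 30 µM groups in 36.6%, 34.2% and 35.6% of all probe sets tested. AT3G01570 had signals of 3618 and 1464 on the dry seed arrays, 632 and 568 on the water arrays, 782 and 962 on those with 3 µM ABA, and 1067 and 1043 with 30 µM ABA. Its groups fell in the same order without overlap, although its dry arrays differed by 2.47 times. AT3G18570 had signals of 1502 and 1315 on the dry seed arrays, 44.2 and 38.2 on the water arrays, 71.6 and 98.8 on those with 3 µM ABA, and 214 and 205 with 30 µM ABA. It too showed dry seed above 30 µM ABA, 30 µM above 3 µM, and 3 µM above water, on every array.

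**Figure D1:**
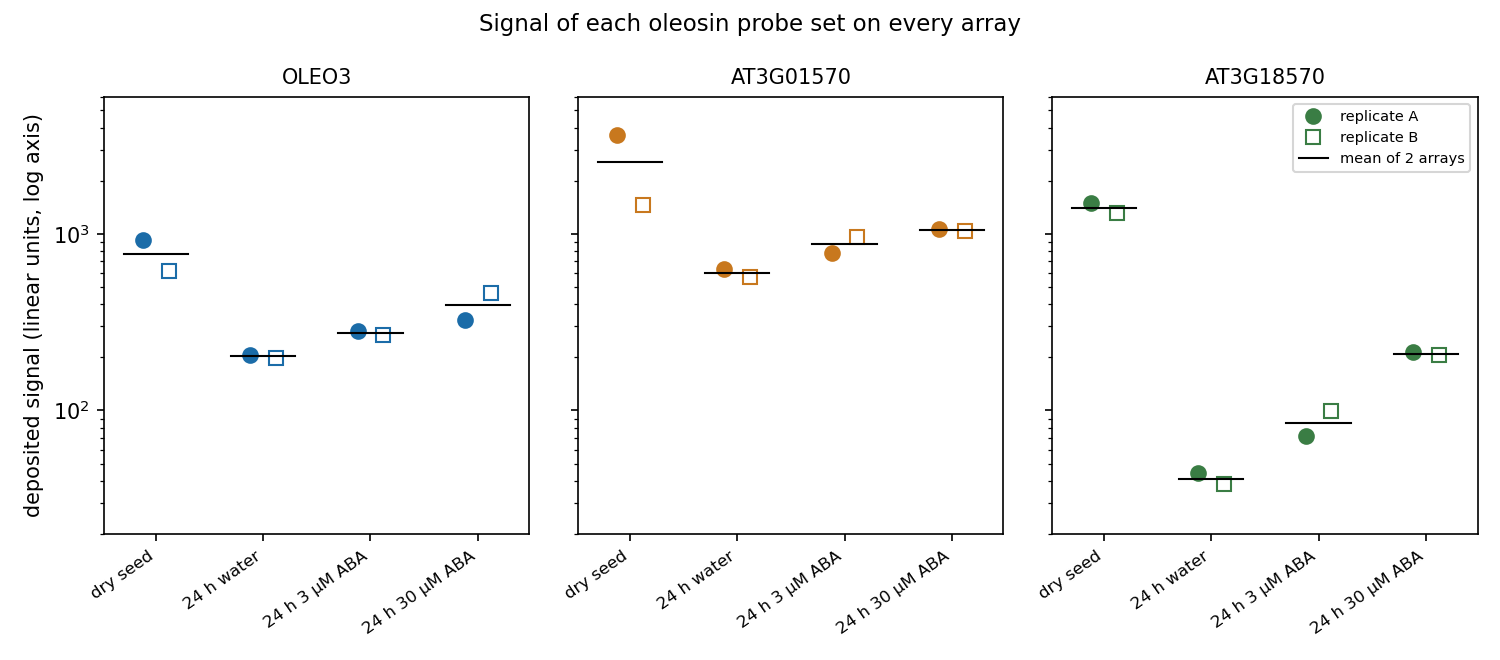
Deposited signal (log axis) of the OLEO3, AT3G01570 and AT3G18570 probe sets on each of the 8 arrays; filled circles are replicate A, open squares replicate B and bars the mean of 2 arrays. In all 3 genes dry seed is highest and water lowest, and AT3G18570 spans the widest range, with means of 1408 in dry seed and 41.2 in water.

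That full order, dry seed over 30 µM ABA over 3 µM ABA over water with no array out of place, was found in 1.94% of all probe sets tested, and in 6.73% of the 4535 that limma called lower in water. The order among imbibed groups alone, 30 µM over 3 µM over water, was found in 2.61%. It held for all 3 oleosins with the deposited scaling, after quantile normalization and with a common median. When arrays were scaled to spike-in controls instead, only AT3G18570 kept it. On that scale OLEO3 had 588 and 369 on the dry seed arrays, 267 and 207 on the water arrays, 478 and 306 on those with 3 µM ABA, and 370 and 407 with 30 µM ABA. The arrays of both ABA groups then overlapped each other and dry seed.

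The first comparison asks what 24 h in water does to transcripts stored in dry seed. All 3 oleosins fell, against 28.5% of all probe sets tested that were called lower. OLEO3 averaged 203 ± 5.44 in water and 768 ± 213 in dry seed (SD, n = 2 each). Its log2 change, on the log2(signal + 3.99) scale used throughout, was -1.87 ± 0.22 (SE, 95% interval -2.37 to -1.38, limma adjusted p = 3.26e-05), or 3.66-fold lower. AT3G01570 averaged 600 ± 44.7 in water and 2541 ± 1523 in dry seed. Its change was -1.93 ± 0.34 (SE, interval -2.68 to -1.19, limma adjusted p = 0.000475). This gene's estimate rests on 2 dry arrays far apart: it was -1.28 without dry replicate A and -2.59 without dry replicate B. The gap is wider than the median, since among 561 probe sets with a mean dry signal above 1000 the median ratio of dry replicate A to B was 1.18. It was not particular to this gene. AT2G28490 had 3810 and 1392 on dry replicates A and B, and AT5G56100 had 3389 and 1399, while AT1G03890 had 2056 and 1919. The highest signal on an array was 3908 and 2322 on dry replicates A and B, and 1381 to 2254 on imbibed arrays. The part of these upper ends in the change was not tested.

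AT3G18570 averaged 41.2 ± 4.25 in water and 1408 ± 132 in dry seed, so that 2.92% of its dry signal was left. Its log2 change was -4.97 ± 0.19 (SE, interval -5.38 to -4.55, limma adjusted p = 2.35e-08), a 31.3-fold drop. Ordered from the lowest change among the 15922 probe sets tested, AT3G18570 ranked 89, AT3G01570 ranked 1318 and OLEO3 ranked 1392. The interval of AT3G18570 lay wholly below those of the other 2 oleosins, although the difference between genes was not itself tested. In water, OLEO3 kept 26.4% ± 0.708 and AT3G01570 23.6% ± 1.76 of the mean dry signal (SD over the water arrays, n = 2). Against dry replicate B or A alone the share of AT3G01570 was 41.0% or 16.6%.

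The size of these falls depended on how the arrays were scaled, while their direction did not. With spike-in scaling the changes were -0.98 for OLEO3, -1.03 for AT3G01570 and -4.08 for AT3G18570, and with quantile normalization that of AT3G01570 was -1.28. The median change of all probe sets tested was 0.15 as deposited, 0.93 after spike-in scaling and -0.35 when medians were made equal, and 28.5%, 10.8% and 41.6% of probe sets were called lower in that order. Relative to that median, the change of AT3G18570 was -5.11 with the deposited scaling and -5.01 with spike-in scaling, and that of OLEO3 was -2.02 and -1.90. Control transcripts that report RNA quality also differed between these groups, though not in every set of probes. For GAPDH, the signal of its 3' over its 5' control probes, in the first of its sets, was 0.927 and 0.371 in water. In dry seed it was 1.81 and 1.69. In the other GAPDH set the arrays overlapped, at 1.31 and 1.05 in water and 1.11 and 0.892 in dry seed. For actin, the same ratio in its first set was 2.94 and 3.80 in water and 4.34 and 4.52 in dry seed. In the other actin set it was 1.27 and 1.10 in water and 1.05 and 0.895 in dry seed, also without overlap. The part of these controls in the result was not tested.

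The next comparison asks what 30 µM ABA changes at 24 h. AT3G18570 was the oleosin that passed the test, among 0.415% of all probe sets called higher. It averaged 210 ± 6.41 in 30 µM ABA and 41.2 ± 4.25 in water (SD, n = 2 each), a change of 2.25 ± 0.19 (SE, interval 1.83 to 2.66, limma adjusted p = 0.00389) or 4.74-fold. It ranked 21 from the highest change. Calls in this comparison were fragile, since with each array left out in turn limma called 0 to 5 probe sets in place of 72. For AT3G18570 limma's adjusted p was 0.0541 without water replicate A, 0.0625 without water replicate B and 0.101 without 30 µM replicate B, and 0.0307 without 30 µM replicate A. The change itself stayed between 2.15 and 2.34 in these 4 fits.

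OLEO3 averaged 394 ± 97.7 in 30 µM ABA and 203 ± 5.44 in water. Its change of 0.92 ± 0.22 (SE, interval 0.42 to 1.41) did not pass over all probe sets (limma adjusted p = 0.145). AT3G01570 averaged 1055 ± 16.8 in 30 µM ABA and 600 ± 44.7 in water, a change of 0.81 ± 0.34 (SE, interval 0.065 to 1.56, limma adjusted p = 0.533). After quantile normalization it did pass, at 1.004 (limma adjusted p = 0.0444, against 0.0444 to 0.998 over the 9 alternative settings that left out no array of these groups). Both arrays in 30 µM ABA lay above both water arrays for each of the 3 oleosins, as they did for 22.3% of all probe sets tested. The GAPDH ratio in the other set of control probes was 0.956 and 0.974 in 30 µM ABA and 1.31 and 1.05 in water. In the first set the arrays overlapped, at 0.556 and 0.520 in 30 µM ABA and 0.927 and 0.371 in water. The first actin set did not overlap, at 2.69 and 2.30 in 30 µM ABA and 2.94 and 3.80 in water. The other actin set did, at 1.13 and 1.18 in 30 µM ABA and 1.27 and 1.10 in water. The part of these control sets in these values was not tested.

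In 3 µM ABA no oleosin passed the test against water, and limma's count over 15922 probe sets was 0 (0%), although 635 had an unadjusted p under 0.05. The 3 µM arrays lay above the water arrays for each oleosin, as for 18.2% of all probe sets tested. AT3G18570 averaged 85.2 ± 19.2 in 3 µM ABA and 41.2 ± 4.25 in water (SD, n = 2 each), a change of 0.97 ± 0.19 (SE, interval 0.55 to 1.38, limma adjusted p = 0.999). OLEO3 changed by 0.43 (interval -0.07 to 0.92) and AT3G01570 by 0.53 (interval -0.22 to 1.28). Between the doses limma's count was likewise 0 (0%), although 513 had an unadjusted p under 0.05. The 30 µM arrays lay above the 3 µM arrays for each oleosin, as for 14.7% of all probe sets tested. AT3G18570 differed by 1.28 between 30 µM and 3 µM ABA (interval 0.86 to 1.69, limma adjusted p = 0.579), OLEO3 by 0.49 (interval -0.0018 to 0.99) and AT3G01570 by 0.28 (interval -0.47 to 1.03). Without 30 µM replicate A or B the difference of OLEO3 was 0.75 or 0.24, and without 3 µM replicate A or B that of AT3G01570 was 0.13 or 0.43. With spike-in scaling the difference of AT3G01570 between the doses turned to -0.20 and that of OLEO3 was 0.02, beside a median of -0.47 over all probe sets tested.

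**Figure D2:**
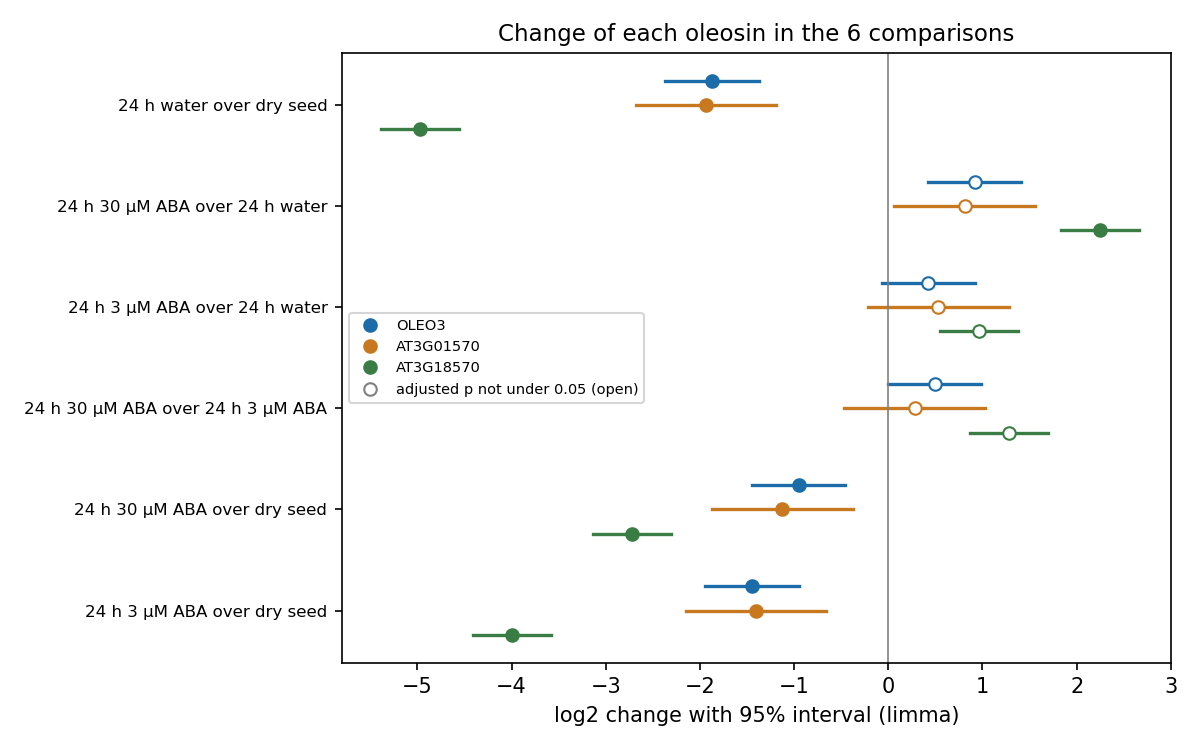
Log2 change of each oleosin in the 6 comparisons, as the limma estimate (points) with its 95% interval (lines); open points did not pass an adjusted p of 0.05. Comparisons with dry seed lie to the left of 0 for all 3 genes, and of the comparisons among imbibed seed only 30 µM ABA over water of AT3G18570 passed, at 2.25.

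In ABA all 3 transcripts still lay below their level in dry seed. The GAPDH ratio of the first set of control probes was 0.552 and 0.557 on the 3 µM arrays and 0.556 and 0.520 on those with 30 µM ABA. In dry seed it was 1.81 and 1.69. In the other set both ABA groups overlapped dry seed. There the ratio was 0.942 and 0.884 in 3 µM ABA, 0.956 and 0.974 in 30 µM ABA, and 1.11 and 0.892 in dry seed. The first actin set gave 2.42 and 2.73 in 3 µM ABA, 2.69 and 2.30 in 30 µM ABA, and 4.34 and 4.52 in dry seed. The other actin set gave 1.01 and 1.15 in 3 µM ABA, 1.13 and 1.18 in 30 µM ABA, and 1.05 and 0.895 in dry seed. There 3 µM ABA overlapped dry seed and 30 µM ABA lay above it. The part of these control sets in these changes was not tested. All 3 were called lower in 30 µM ABA than in dry seed, as were 26% of all probe sets tested, and all 3 in 3 µM ABA, as were 26.7%. In 30 µM ABA, AT3G18570 changed by -2.72 ± 0.19 (SE, limma adjusted p = 9.55e-07), OLEO3 by -0.95 ± 0.22 (adjusted p = 0.00357) and AT3G01570 by -1.12 ± 0.34 (adjusted p = 0.0137). In 3 µM ABA the changes were -4.00, -1.45 and -1.40 in the same order of genes. Without dry replicate A or B the 3 µM change of AT3G01570 was -0.75 or -2.06, and after quantile normalization it was -0.70. The calls of OLEO3 and AT3G01570 ended with spike-in scaling, at -0.26 and -0.43 in 30 µM ABA and at -0.28 and -0.23 in 3 µM ABA. That of AT3G01570 in 30 µM ABA also ended with quantile normalization, at -0.28, and without dry replicate A, at -0.47, while without dry replicate B the change was -1.77. It ended too without 30 µM replicate A (limma adjusted p = 0.0556) or B (0.0597), and over all 4 fits that left out 1 array the adjusted p ran from 4.59e-05 to 0.0597.

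**Figure D3:**
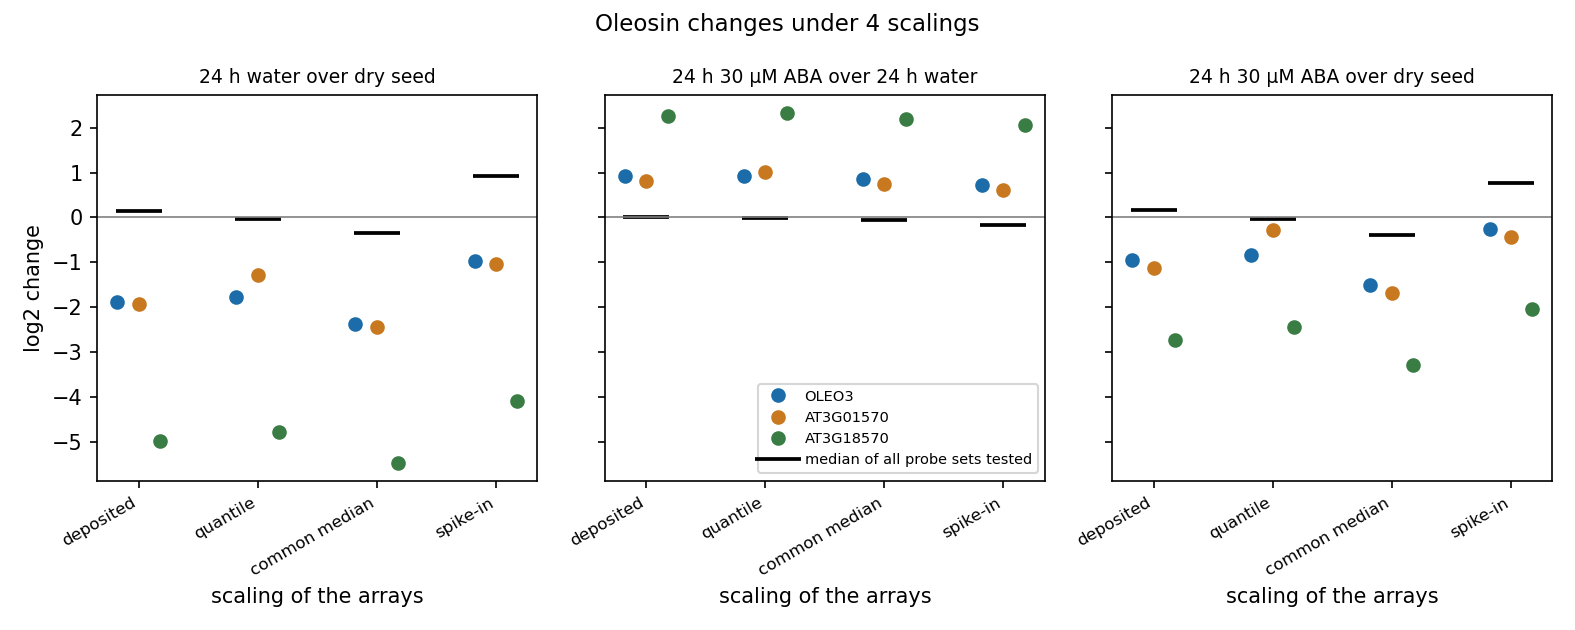
Log2 change of the 3 oleosins (points) and median change of all probe sets tested (bars) under 4 scalings of the arrays, for water over dry seed, 30 µM ABA over water and 30 µM ABA over dry seed. AT3G18570 keeps the largest change of the 3 genes in every panel, and with spike-in scaling OLEO3 and AT3G01570 come within 0.43 of 0 in the comparison of 30 µM ABA with dry seed.

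The levels in ABA can also be placed within each gene's own range between water and dry seed. On the log2 scale, with water set to 0 and dry seed to 1, the 3 µM arrays averaged 0.227 ± 0.028 for OLEO3, 0.274 ± 0.109 for AT3G01570 and 0.195 ± 0.063 for AT3G18570 (SD, n = 2). The 30 µM arrays averaged 0.491 ± 0.191, 0.419 ± 0.012 and 0.452 ± 0.0087 in the same order of genes. These SDs leave out the spread of the dry arrays: without dry replicate A or B the position of AT3G01570 was 0.632 or 0.314 at 30 µM and 0.413 or 0.205 at 3 µM. Over the 4535 probe sets called lower in water, the median position was 0.077 in 3 µM ABA (quartiles -0.018 and 0.182) and 0.140 in 30 µM ABA (quartiles 0.035 and 0.254). All 3 oleosins lay above the upper quartile at both doses with the deposited scaling. These positions use the same water and dry arrays for both doses, and they are a description with no test. With a common median the 30 µM positions were 0.362, 0.308 and 0.400, still above the upper quartile of 0.155. After quantile normalization that of AT3G01570 was 0.785. With spike-in scaling the 30 µM positions were 0.730, 0.583 and 0.503, above the upper quartile of 0.408. At 3 µM on that scale OLEO3 (0.710) and AT3G01570 (0.773) lay between the median of 0.324 and the upper quartile of 0.825. AT3G18570 (0.302) lay below that median. The 4535 probe sets were called with the deposited scaling and kept for the others. Spike-in scaling called 1712 lower in water, so quartiles on that scale include probe sets not called lower there.

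As shares of the mean dry signal on the linear scale, with no water level taken off, the genes stood further apart. These shares already differed in water, at 2.92% for AT3G18570, 26.4% for OLEO3 and 23.6% for AT3G01570. In 30 µM ABA, AT3G18570 had 14.9% ± 0.455 of its mean dry signal, OLEO3 had 51.2% ± 12.7 and AT3G01570 had 41.5% ± 0.663 (SD over the 30 µM arrays, n = 2). In 3 µM ABA the shares were 6.05% ± 1.36, 35.7% ± 1.33 and 34.3% ± 5.001. For AT3G01570, whose dry arrays stood far apart, dry replicate B or A alone as the base gave 72.0% or 29.1% in 30 µM ABA and 59.6% or 24.1% in 3 µM ABA.

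The spread between replicates differed by gene and group. OLEO3 varied most in dry seed and 30 µM ABA, where replicates differed by 0.57 and 0.51 on the log2 scale, against medians of 0.26 and 0.18 over all probe sets tested. AT3G01570 differed by 1.30 in dry seed and by 0.03 in 30 µM ABA. AT3G18570 differed by 0.44 in 3 µM ABA, the group with 2 title numbers, and by 0.06 to 0.19 in the other 3 groups.

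Genes with the most similar pattern were sought by the root mean square difference of log2 values over the 8 arrays, after each probe set was centred on its own mean. This measure weighs the size of the change as well as its order. Among 8897 other probe sets of a single gene, those nearest to OLEO3 were AT5G65100 (0.164), AT1G27461 (0.187) and AT5G23680 (0.198). Those nearest to AT3G01570 were PDF2.1 (0.174), AT1G27461 (0.197) and AT2G15010 (0.218). AT1G27461 stood among the nearest of both. OLEO3 and AT3G01570 were 0.260 apart, which made OLEO3 the 10th nearest gene to AT3G01570 and AT3G01570 the 32nd nearest to OLEO3. AT3G18570 stood apart from both, at 1.19 from OLEO3 and 1.199 from AT3G01570. Its nearest genes were AT5G18450 (0.301), AT5G01670 (0.306) and AT5G60760 (0.313). AT5G18450 had mean signals of 2384 in dry seed, 83.6 in water, 188 in 3 µM ABA and 366 in 30 µM ABA.

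Other proteins of oil bodies and lipid droplets were taken from a list of 41 loci. They were grouped by what is generally known of them, because the annotation used here gives most of them as locus codes only. Of these 41, 11 had a single-gene probe set and 9 passed the filter. The list includes OLEO1, OLEO2 and OLEO4, the other seed oleosins with a name, for which no single-gene probe set was used here. Of the 9, 6 fell in water relative to dry seed and 1 rose, with a median change of -1.59 against 0.15 over all probe sets tested, of which 28.5% were called lower and 37.5% higher.

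Of 13 other oleosin loci on the list, 2 had a single-gene probe set, and both fell. AT2G25890 had signals of 217 and 412 in water and 3269 and 1652 in dry seed. Its change of -2.94 ± 0.46 (SE) passed (limma adjusted p = 0.00022). AT5G56100 had 366 and 403 in water and 3389 and 1399 in dry seed (-2.49 ± 0.38 SE, limma adjusted p = 0.000204). In both, dry replicate A was well above dry replicate B, as it was for AT3G01570. In 30 µM ABA their signals were 798 and 989 for AT2G25890 and 620 and 657 for AT5G56100. Their changes against water, 1.56 and 0.73, did not pass (limma adjusted p = 0.271 and 0.679).

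Of 6 measured genes of other lipid droplet proteins, 4 fell in water and 1 rose. The fall was deepest for AT5G16460, with 37.5 ± 5.42 in water and 943 ± 172 in dry seed (SD, n = 2 each; log2 change -4.51 ± 0.36 SE). AT5G16550 changed by -2.54, AT3G14360 by -1.59 and AT3G05500 by -1.36. AT1G67360 was the one that rose, with signals of 490 and 419 in water and 66.0 and 29.5 in dry seed (3.24 ± 0.28 SE, limma adjusted p = 3.38e-06). In 30 µM ABA it had 432 and 429, within the range of the water arrays. AT2G47780 did not pass, at 1290 ± 187 in water and 1010 ± 174 in dry seed (0.36 ± 0.20 SE, limma adjusted p = 0.14). AT4G10790, the measured gene of the 2 listed for oleosin turnover, had 347 ± 72.3 in water and 454 ± 27.6 in dry seed (-0.40 ± 0.19 SE, limma adjusted p = 0.094).

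In 30 µM ABA against water, limma called 0 of these 9 genes, although at an unadjusted p under 0.05 there were 4. Their median change was 0.50, against 0.02 over all probe sets tested, of which 0.452% were called in either direction. The highest after AT2G25890 was that of AT5G16460, which had 114 ± 30.6 in 30 µM ABA and 37.5 ± 5.42 in water (1.48 ± 0.36 SE, limma adjusted p = 0.142).

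**Figure D4:**
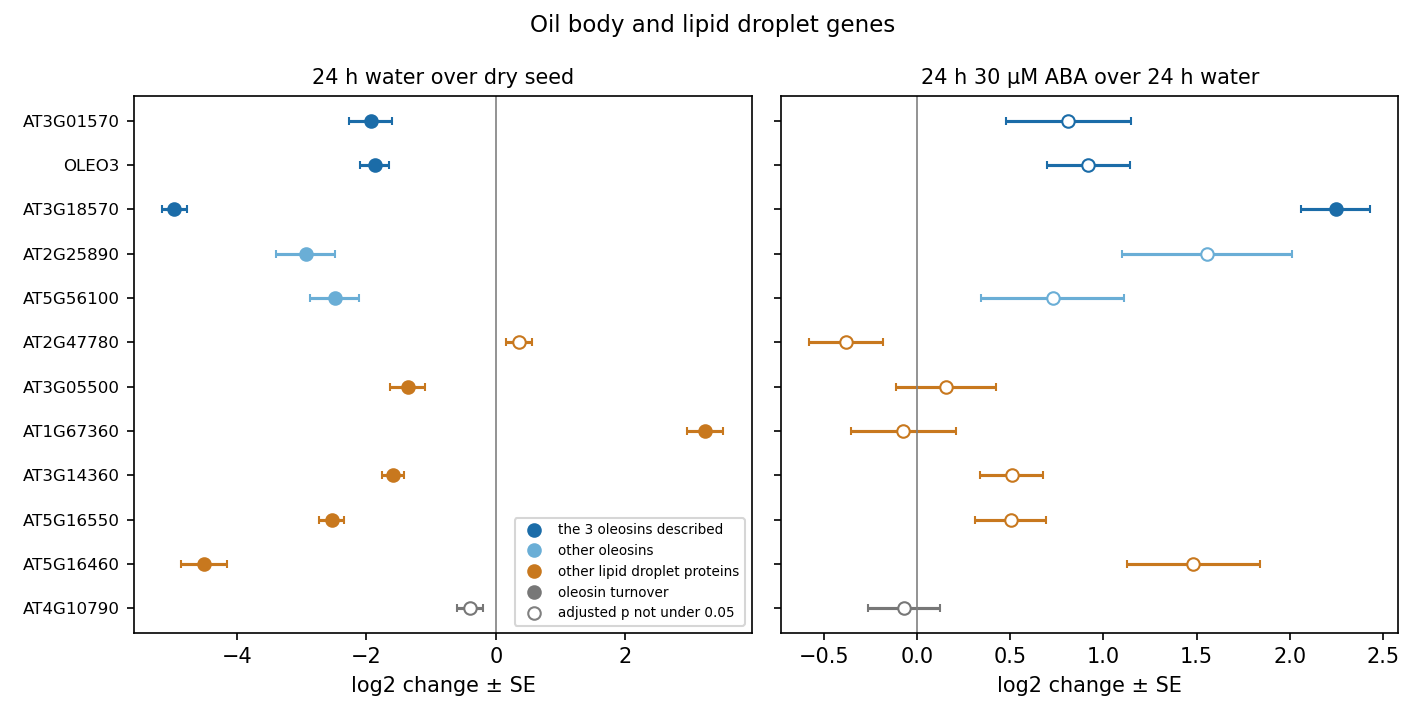
Log2 change ± SE of the 3 oleosins and of 9 other oil body and lipid droplet genes, in water over dry seed (left) and in 30 µM ABA over water (right); open points did not pass an adjusted p of 0.05. All genes but AT2G47780, AT4G10790 and AT1G67360 fell in water, AT1G67360 rose by 3.24, and in 30 µM ABA only AT3G18570 passed.

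Genes that act before and after the oil body coat had fewer measured members. Of 15 listed genes of triacylglycerol and fatty acid breakdown, 4 were measured, 2 of which fell in water relative to dry seed, beside 28.5% of all probe sets tested. Of the 4, limma called 0 in 30 µM ABA against water, with 0 at an unadjusted p under 0.05, beside 0.452% of all probe sets called in either direction. AIM1, of fatty acid beta-oxidation, had 419 ± 62.1 in water and 1174 ± 146 in dry seed (-1.48 ± 0.18 SE). SDP1, the lipase that opens triacylglycerol breakdown in seedlings, changed by -0.73 ± 0.15 (SE) in water and by 0.28 in 30 µM ABA against water. Its relative SDP1-LIKE had 111 ± 1.34 in water and 98.2 ± 25.2 in dry seed. For the 7 listed genes of triacylglycerol synthesis no single-gene probe set was used here.

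Of 14 listed regulators of seed maturation, 2 were measured and both fell in water, as did 28.5% of all probe sets tested. AGL67, a MADS-domain factor, had 44.2 ± 9.03 in water and 1041 ± 54.8 in dry seed (-4.45 ± 0.30 SE). EEL, a bZIP factor of the ABA response, had 34.7 ± 4.10 in water and 484 ± 18.1 in dry seed (-3.66 ± 0.19 SE). In 30 µM ABA against water EEL was called, at 1.10 ± 0.19 (SE, limma adjusted p = 0.0445), and AGL67 was not, at 1.26 ± 0.30 (SE, limma adjusted p = 0.142). All 5 measured seed storage protein genes fell in water (median change -2.53), where 28.5% of all probe sets tested were called lower. Of the 5, 2 were called higher in 30 µM ABA against water, AT4G36700 at 1.89 and AT1G03890 at 1.16, beside 0.415% of all probe sets tested and a median of 1.16 for the list. AT2G28490 had 403 ± 108 in water and 2601 ± 1710 in dry seed, and its change of 1.43 in 30 µM ABA against water did not pass (limma adjusted p = 0.248). PAP85 had 1042 ± 73.7 in water and 2213 ± 1360 in dry seed.

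Of 8 listed markers of endosperm and seed coat, the other tissues of whole seed, DFR and BAN had a probe set. The markers listed for endosperm had no probe set used here, so no endosperm marker was measured. DFR and BAN gave little signal. Their summed signal was 17.5 and 12.4 on the dry seed arrays, 15.4 and 4.33 on the water arrays, 16.3 and 22.5 on those with 3 µM ABA, and 14.4 and 5.79 with 30 µM ABA. Both 3 µM arrays lay above the water and 30 µM arrays, and the other groups overlapped each other. For DFR alone the 3 µM and water arrays overlapped, at 15.3 and 12.9 in 3 µM ABA and 14.8 and 3.58 in water. BAN was too dim to be tested. The change of DFR was -0.55 in water against dry seed (limma adjusted p = 0.302) and -0.11 in 30 µM ABA against water (limma adjusted p = 0.989). The part of these tissues in the oleosin values was not tested.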

How the data were processed

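What the authors deposited is an intensity per probe set for each array, not log-transformed, and the submitters' processing notes name MAS5 with no version. The 2% trimmed mean of every array lay at 100.007 to 100.009, so the deposited scaling fixes it. The number of arrays limits the precision, and the table used here held no detection calls. Treatments were read from the treatment text of the labels.

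From these, log2(signal + 3.99) was computed, with the 20th percentile of the signals as pseudocount. The 64 control probe sets were left out, and probe sets with a mean above the 30th percentile were kept. All 8 arrays entered 1 fit in limma 3.58.1 (R 4.3.3, trended empirical Bayes, 4 residual degrees of freedom), and the fit was tested on simulated data. Adjustment was by Benjamini-Hochberg over 15922 probe sets, with a threshold of 0.05. No exact permutation test was run on single values, since with 2 arrays a group its smallest p is 0.333. Spike-in scaling used 9 bioB, bioC, bioD and cre probe sets. The sources used here do not say how these controls were added, so this is an alternative scaling and no measure of total RNA. The RefSeq table of TAIR10.1 held 13436 of the 13513 single-gene probe sets' loci and was used for names only; 503 probe sets name several genes and 8730 none.

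The genes and lists were chosen with earlier results of these data known. Named genes are the 3 oleosins, every kept oil body gene, up to 3 of each other list by mean signal, and the 3 nearest genes in pattern. Of the 98 listed loci, 24 had a probe set and 21 were kept. PAP85, AT2G28490 and AT4G36700 are the 3 storage genes of that rule, and AT1G03890 was named after its values were seen, as 1 of 2 called. Alternatives changed the pseudocount, filter, scaling, variance trend, groups in the fit and replicate block, or left out 1 array. Gene sequences were not analysed here.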

Additional observations from a re-analysis of the deposited data

How the results depend on the processing

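Of 234 changes of the 3 oleosins recomputed under alternatives, 221 kept their direction and their side of the threshold, 11 lost their call, 1 gained one and 1 reversed. The falls in water against dry seed kept their call in every alternative run, from -2.37 to -0.98 for OLEO3, -2.59 to -1.03 for AT3G01570 and -5.46 to -4.08 for AT3G18570. With spike-in scaling the change of AT3G01570 between 30 µM and 3 µM ABA reversed to -0.20. Against dry seed the same scaling ended the calls of OLEO3 (-0.26 in 30 µM and -0.28 in 3 µM ABA) and AT3G01570 (-0.43 and -0.23). Quantile normalization ended that of AT3G01570 in 30 µM ABA against dry seed (-0.28) and made its change against water pass (1.004). Leaving out 1 array gave 2.15 to 2.34 for AT3G18570 in 30 µM ABA against water and -1.77 to -0.47 for AT3G01570 in 30 µM ABA against dry seed. The causes were not tested.

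The limma count for 30 µM ABA against water was 72, or 38 with a pseudocount of 1, 11 with no filter, 202 with spike-in scaling, 2 with no intensity trend, 154 with only both groups in the fit, and 0 to 5 with 1 array left out. Of these calls 91.7% were higher with the deposited scaling and 62.4% with spike-in scaling. In water against dry seed the share of calls that were higher was 56.8%, or 83.2% after spike-in scaling and 38.5% when medians were made equal. Against dry seed it was 58.5%, 82.3% and 35.6% for 30 µM ABA, and 58.7%, 89.5% and 37.6% for 3 µM ABA. Spike-in scaling called 28 probe sets for 3 µM ABA against water and 10 between the doses, in place of 0 each. The title letter was not taken to pair the arrays, since differences between replicates A and B did not correlate in every pair of groups: the correlation was 0.307 for 3 µM ABA with water, 0.230 for 30 µM ABA with water, and -0.081 to 0.088 for the other pairs. With the letter as a block the 30 µM comparison gave 135 calls, and no call of OLEO3, AT3G01570 or AT3G18570 changed. Dim probe sets are limited by the pseudocount, and with 2 arrays a group the spread is known only roughly.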

Other observations

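In 3 µM ABA, where title numbers differ between replicates, the 5 measured oleosins did not differ alike. The signal of replicate B over replicate A was 2.61 for AT2G25890 (840 and 322), 1.92 for AT5G56100 (656 and 341), 1.38 for AT3G18570, 1.23 for AT3G01570 and 0.949 for OLEO3. The difference of AT2G25890 was exceeded by 0.829% of all probe sets tested and that of AT5G56100 by 2.83%. Of 7 listed caleosins, calcium-binding proteins of oil bodies, 2 had a probe set of their own, AT1G23240 and AT1G23250. Both were too dim to be tested, with group means of 3.07 to 8.93 and 3.28 to 7.64. For the other caleosins no single-gene probe set was used here.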
